A study of Mus musculus with 6 samples.

Results

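The genes encoding the subunits of the glutamate and GABA receptors were examined in the fetal mouse cortex after maternal exposure to bisphenol A (BPA), a plastic monomer that mimics estrogen. Members were taken by symbol alone: Gria1 to Gria4, Grin1, Grin2a to Grin2d, Grin3a, Grin3b, Grik1 to Grik5, the Grid and Grm genes, the Gabra, Gabrb, Gabrg and Gabrr genes, Gabrd, Gabre, Gabrp, Gabrq, Gabbr1 and Gabbr2. All 47 genes with these symbols in the annotation were among the 45583 rows of the count table, and 40 of them had enough counts to be among the 13741 genes tested. The 7 that were not tested were Gabra6, Gabre, Gabrp, Gabrr1, Gabrr2, Gabrr3 and Grm6. The samples were 3 vehicle fetuses and 3 BPA fetuses, each giving 1 library of total RNA from brain cortex at GD15.5 (gestational day). Dams were of the Cyp19-EGFP strain, which carries an artificial chromosome with the aromatase gene Cyp19a1 and a green fluorescent protein gene, and all 6 fetuses were labelled WT and SRY +, the latter marking males. Vehicle was peanut oil, and BPA was given at 50 µg/kg by injection from GD10.5 to GD14.5. The labels number fetuses and do not name litters, so the p-values below measure the spread between these fetuses only.

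Glutamate opens the AMPA, NMDA and kainate receptors, which are channels that excite the cell, and it also acts on the metabotropic receptors, which signal through G proteins. GABA opens the GABA-A receptors, chloride channels that are usually built from alpha, beta and gamma chains, and acts more slowly through GABA-B, a G protein-coupled pair of Gabbr1 and Gabbr2. In the fetal cortex these receptors are made before most synapses exist. GABA often depolarizes immature neurons because they hold much chloride, and the subunit make-up of NMDA and GABA-A receptors is known to shift around and after birth.

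The libraries held 3444601 to 7180835 counts, of which the 47 genes took 0.294% to 0.355%. Levels are given as CPM, the count relative to the scaled total of its library. With 0 counts, counting error alone still allowed 0.422 CPM in vehicle 2, the deepest library, and 0.875 CPM in BPA 3, the shallowest. All 10 markers of the dorsal pallial lineage, the excitatory neurons of the cortex and their progenitors, were tested. They summed to 3366 to 3924 CPM in vehicle and 3562 to 3856 CPM in BPA, and none of them had an unadjusted p under 0.05. All 14 markers of the ventral telencephalon, where most cortical interneurons are born, were also present, at 1185 to 1342 CPM summed in vehicle and 1026 to 1122 CPM in BPA. Choroid plexus RNA stood out in vehicle 2 and BPA 2, where Ttr, the transthyretin gene of that tissue, was at 195 and 308 CPM against 2.21 to 11.9 CPM in the other 4 libraries. In RNA of whole tissue, fewer cells of a type and less RNA per cell cannot be told apart.

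Many of these genes arose by duplication, so their reads could in principle be mistaken for each other. The reads were 50 bases long. Among 238 pairs of members of the same receptor class, 2 pairs shared any coding stretch of 50 bases, with 57 such stretches for Gabrr1 and Gabrr2 and 1 for Gria3 and Gria4. The following sequences are the 50 coding bases of Gria2 that lie closest to the other 3 AMPA genes, with the matching stretch of each, from exon 11 of the GENCODE M21 transcripts (GRCm38), where the coding sequence enters the first membrane helix. Capitals mark bases that differ from Gria2, and each of the other 3 differs at 5 of 50 bases.
Gria2 (chr3:80707065-80707114, minus strand): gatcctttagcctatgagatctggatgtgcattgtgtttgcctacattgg
Gria1 (chr11:57242893-57242942, plus strand): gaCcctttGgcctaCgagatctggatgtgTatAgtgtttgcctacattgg
Gria3 (chrX:41610058-41610107, plus strand): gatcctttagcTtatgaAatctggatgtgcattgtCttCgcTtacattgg
Gria4 (chr9:4464291-4464340, minus strand): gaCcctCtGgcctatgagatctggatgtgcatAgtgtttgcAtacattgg

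The same comparison is shown for Gabra2, Gabra3 and Gabra5, the 3 highest alpha chains of the GABA-A receptor among the genes reported here, since alpha chains set much of its pharmacology. These 50 coding bases lie in exon 9 and lead into the third membrane helix, and capitals mark bases that differ from Gabra2. In this stretch, chosen for the fewest differences from both genes together, Gabra3 differs from Gabra2 at 7 bases and Gabra5 at 6.
Gabra2 (chr5:70973519-70973568, minus strand): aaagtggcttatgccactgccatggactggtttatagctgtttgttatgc
Gabra3 (chrX:72445278-72445327, minus strand): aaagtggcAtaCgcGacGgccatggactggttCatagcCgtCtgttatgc
Gabra5 (chr7:57413689-57413738, minus strand): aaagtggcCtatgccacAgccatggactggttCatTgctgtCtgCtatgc

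Other genes on the same stretch of genome were a larger source of shared sequence for a few members. Over 5% of exon bases were overlapped by another gene for 8 of 47 members. The highest share was 32.1% for Grin3b, whose opposite strand holds Tmem259, a gene with 386 to 1117 counts against 6 to 19 for Grin3b. For Grin1 the share was 13.5% with Grin1os, an antisense gene that had 7 to 10 counts. Grin2d shared 9.66% with Gm45441. Grin2a had no exon bases overlapped by another gene, but 11.6% of its 50-base words also occurred in other transcripts, mainly Gm7328. Neither Gm45441 nor Gm7328 had a row under its symbol in the count table. Grm2 shared 9.6% of its exon bases with Gm28111 on the opposite strand. Whether reads were counted by strand is not stated in the sources used here. The values of Grin3b, Grin1, Grin2d and Grm2 may therefore be shifted, in a direction not known here, by reads from the stretches shared with their partners.

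Levels were compared between genes as CPM per kb of exon, averaged over the 6 libraries. The highest were Gabbr1 at 56.3 ± 2.45 (SD, n = 6) and Grik5 at 55.6 ± 2.39 (SD, n = 6), whose ranges overlapped, and both lay above every other member in every library. Next came Gria2, Grik3 and Gria1, from 40.4 ± 6.69 down to 31.9 ± 3.34 (SD, n = 6), each overlapping its neighbour in the order. Gabra3, at 14.2 ± 1.99 (SD, n = 6), lay below the range of Gria1. From Gabra3 down to Grin2c, at 0.633 ± 0.27 (SD, n = 6), no neighbouring pair was separated by its ranges, while the next gene, Grm8, lay below the range of Grin2c at 0.343 ± 0.0587 (SD, n = 6). Gabrp and Gabrr3, subunits known mainly outside the brain and in the retina, were at 0 counts in all 6 libraries. Gabra6 of cerebellar granule cells, Grm6 of retinal bipolar cells and Gabrr1 had at most 2 counts in any library.

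**Figure D1:**
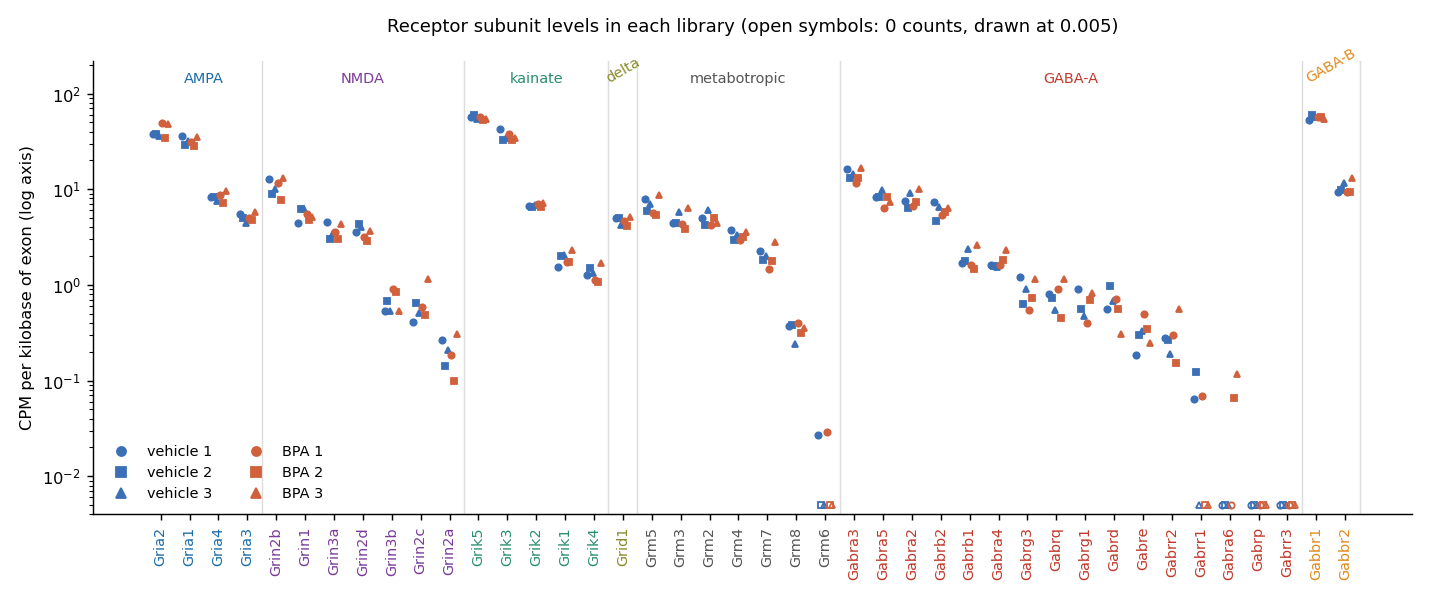
Level of 42 receptor subunit genes in each of the 6 libraries, as CPM per kb of exon on a log axis, grouped by receptor class. Blue symbols are vehicle and orange symbols BPA, with a shape for each replicate, and open symbols at the bottom are counts of 0; Gabbr1 and Grik5 lie highest and the 2 groups of symbols overlap for nearly every gene.

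No gene passed the test of BPA against vehicle, receptor subunits included. With edgeR's quasi-likelihood test, 0 of 13741 genes passed an adjusted p of 0.1 (0%), and the smallest adjusted p of a member was 0.9998. In all, 302 genes tested (2.2%) had an unadjusted p under 0.05, 162 lower and 140 higher in BPA, against 0 of the 40 members. DESeq2 called 3 genes at the adjusted threshold and the likelihood ratio test 4, none of them a member. Groups that did not overlap were found for 439 genes higher in BPA (3.19%) and 489 lower (3.56%), against 1 member higher, Gabra4, and 0 lower.

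Of the 40 members tested, 24 were lower in BPA and 16 higher, beside 49.5% of all genes lower. The median log2 difference was -0.04 for the members and 0.0016 for all genes tested, and the median size without sign was 0.074 and 0.089. By class, 1 of 4 AMPA, 4 of 7 NMDA, 3 of 5 kainate, 5 of 7 metabotropic, 9 of 13 GABA-A and 1 of 2 GABA-B genes were lower. The number lower rested on single libraries. It was 16 of 40 without vehicle 1, 18 of 40 without BPA 1, 17 of 41 without BPA 2 and 32 of 41 without BPA 3, and the median ran from -0.12 to 0.04 over these fits.

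AMPA receptors carry most of the fast excitation. Gria2, the subunit whose edited form keeps calcium out of the channel, gave 582, 583 and 560 CPM in vehicle and 771, 528 and 750 CPM in BPA. BPA 1 and BPA 3 lay above all vehicle libraries, while BPA 2 lay below them. The difference was 0.25 on the log2 scale (SE 0.122, unadjusted p = 0.061 by edgeR's quasi-likelihood test). Without BPA 2 it was 0.40, with an adjusted p of 0.995 by edgeR's quasi-likelihood test (0.000782 unadjusted). Without both vehicle 2 and BPA 2 it was 0.42, with an adjusted p of 0.227, so it passed the threshold of 0.1 in neither case. Other omissions shrank it, to 0.15 without BPA 1 (unadjusted p = 0.275) and 0.18 without BPA 3 (unadjusted p = 0.216). Gria1, the subunit known for its delivery to synapses in plasticity, had 219, 174 and 193 CPM in vehicle and 186, 171 and 214 CPM in BPA, which overlap widely. Gria4, a subunit prominent in early circuits, had 52.8, 51.8 and 47.7 CPM in vehicle and 54.5, 45.7 and 60.1 CPM in BPA. Gria3 stayed between 44.0 and 56.6 CPM. Per length, Gria2 made up 47.0% of the AMPA subunits and Gria1 37.4%, leaving 9.66% for Gria4 and 5.95% for Gria3.

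NMDA receptors need Grin1 together with a Grin2 or Grin3 chain, and those with Grin2 chains open mainly when glutamate meets a depolarized membrane. Grin2b, the Grin2 chain of immature neurons, gave 315, 221 and 248 CPM in vehicle and 292, 189 and 326 CPM in BPA. The obligatory Grin1 had 43.1, 59.5 and 60.5 CPM in vehicle and 53.4, 46.0 and 49.3 CPM in BPA. In Grin3a, a chain that lowers calcium entry, the values were 55.3, 36.9 and 42.6 CPM for vehicle and 43.5, 37.2 and 52.5 CPM for BPA. None of the 3 separated the groups. Grin2d, a chain of slow channels found early in development and in interneurons, had the smallest unadjusted p of all members and is named for that reason, after its values were seen. It gave 23.5, 29.1 and 26.8 CPM in vehicle and 21.2, 19.2 and 24.5 CPM in BPA, with BPA 3 above vehicle 1, and its log2 difference was -0.31 (SE 0.146, unadjusted p = 0.0511). Leaving out single libraries moved it between -0.39 and -0.23, with an unadjusted p of 0.0239 without vehicle 1 and 0.0268 without BPA 3. Without vehicle 2 and BPA 2 together it was -0.14 (unadjusted p = 0.422), and without vehicle 1 and BPA 3 together -0.47 (unadjusted p = 0.0127, adjusted p near 1).

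Among the Grin2 genes, Grin2b took 70.3% of the length-scaled total and Grin2d 24.3%. Grin2a, the chain that joins synapses after birth, took 1.29%, with 4.71, 2.53 and 3.75 CPM in vehicle and 3.30, 1.79 and 5.54 CPM in BPA. It rested on 11 to 32 counts. Grin2c, best known from the cerebellum, and Grin3b, known from motor neurons, had 13 to 23 and 6 to 19 counts. Their log2 differences of 0.41 and 0.42 had standard errors of 0.36 and 0.34.

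Kainate receptors modulate release and early network activity, and delta receptors bind cerebellins rather than working mainly as glutamate channels. Grik5, a high-affinity kainate chain that needs a partner to form channels, gave 290, 307 and 279 CPM in vehicle and 295, 274 and 279 CPM in BPA. Grik3 had 381, 294 and 310 CPM in vehicle and 339, 291 and 311 CPM in BPA. For Grik2, the values were 88.2, 86.9 and 90.3 CPM in vehicle and 93.8, 86.1 and 95.1 CPM in BPA. These were among the steadiest members, with 95% intervals of the log2 difference from -0.24 to 0.14 for Grik5 and from -0.17 to 0.27 for Grik2. Grik5 and Grik3 made up 54.9% and 35.2% of the kainate total per length, and Grik2, which can form channels by itself, 6.71%. Grik1 and Grik4 lay at 10.3 to 15.46 and 6.34 to 10.2 CPM. Grid1, a delta receptor gene, was at 24.7 to 30.6 CPM.

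Of the 8 metabotropic genes, 7 were tested. Grm5, a group I receptor that raises intracellular calcium and is strong in the young forebrain, gave 80.3, 61.0 and 71.8 CPM in vehicle and 57.6, 54.9 and 88.7 CPM in BPA, with both the lowest and the highest library in the BPA group. Grm3, a group II receptor also made by glia, had 13.5, 13.5 and 17.6 CPM in vehicle and 13.3, 11.7 and 19.3 CPM in BPA. Grm2, the presynaptic group II receptor, had 24.6, 20.6 and 29.6 CPM in vehicle and 20.9, 24.2 and 21.9 CPM in BPA. Per length these 3 took 26.9%, 19.5% and 19.5% of the metabotropic total, so no metabotropic gene dominated its class as Grin2b did among the Grin2 genes. Grm4, Grm7 and Grm8 had log2 differences from -0.06 to 0.07. For the class as a whole, 5 of 7 were lower in BPA, with a median of -0.06, and none had an unadjusted p under 0.05.

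GABA-A receptors had 19 genes, of which 13 were tested. Gabra3, an alpha chain of immature neurons, had 64.3, 51.1 and 56.8 CPM in vehicle and 45.9, 51.5 and 65.4 CPM in BPA. The groups overlapped, and BPA 3 was the highest library. Gabra2, an alpha chain prominent in the young forebrain, lay at 49.1 to 76.4 CPM. The beta chain genes Gabrb2 and Gabrb1 lay at 29.4 to 47.2 and 20.3 to 36.5 CPM, with log2 differences of -0.08 and -0.07. Among the alpha chains Gabra3 took 42.0% of the level per length and Gabra5 23.9%.

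Gabra4, an alpha chain that pairs with delta in extrasynaptic receptors, was the only member whose groups did not overlap in the CPM used here. It gave 9.85, 9.57 and 9.47 CPM in vehicle and 9.89, 11.1 and 14.004 CPM in BPA, so that the lowest BPA library lay just above the highest vehicle library. The log2 difference was 0.24 (SE 0.192, unadjusted p = 0.223), on 48 to 68 counts a library, and the groups overlapped under upper quartile scaling and after thinning to the smallest library. The difference was 0.12 without BPA 3 and 0.35 without BPA 1. Its share of the alpha chains was 4.48%, 5.09% and 4.22% in vehicle and 5.86%, 5.62% and 5.92% in BPA, with no overlap between the groups. Gabra4 begins head to head with Gabrb1 on chromosome 5, and 0.756% of its exon bases are overlapped by that gene. Gabra5, an alpha chain of extrasynaptic receptors named here after its values were seen, had 24.9, 24.4 and 29.2 CPM in vehicle and 19.0, 24.4 and 21.9 CPM in BPA. Its groups overlapped only narrowly, with BPA 2 at 24.377 CPM above vehicle 2 at 24.354 CPM. With DESeq2, RLE scaling, no filter or a minimum of 1 CPM, the groups of Gabra5 did not overlap. Its log2 difference was -0.26 (SE 0.146, unadjusted p = 0.0951), and it was -0.16 without BPA 1 (unadjusted p = 0.341) and -0.36 without BPA 2 (unadjusted p = 0.0435). Gabrd, the delta chain, rested on 3 to 20 counts and its log2 difference of -0.41 had the widest interval of all members, from -1.25 to 0.42.

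**Figure D2:**
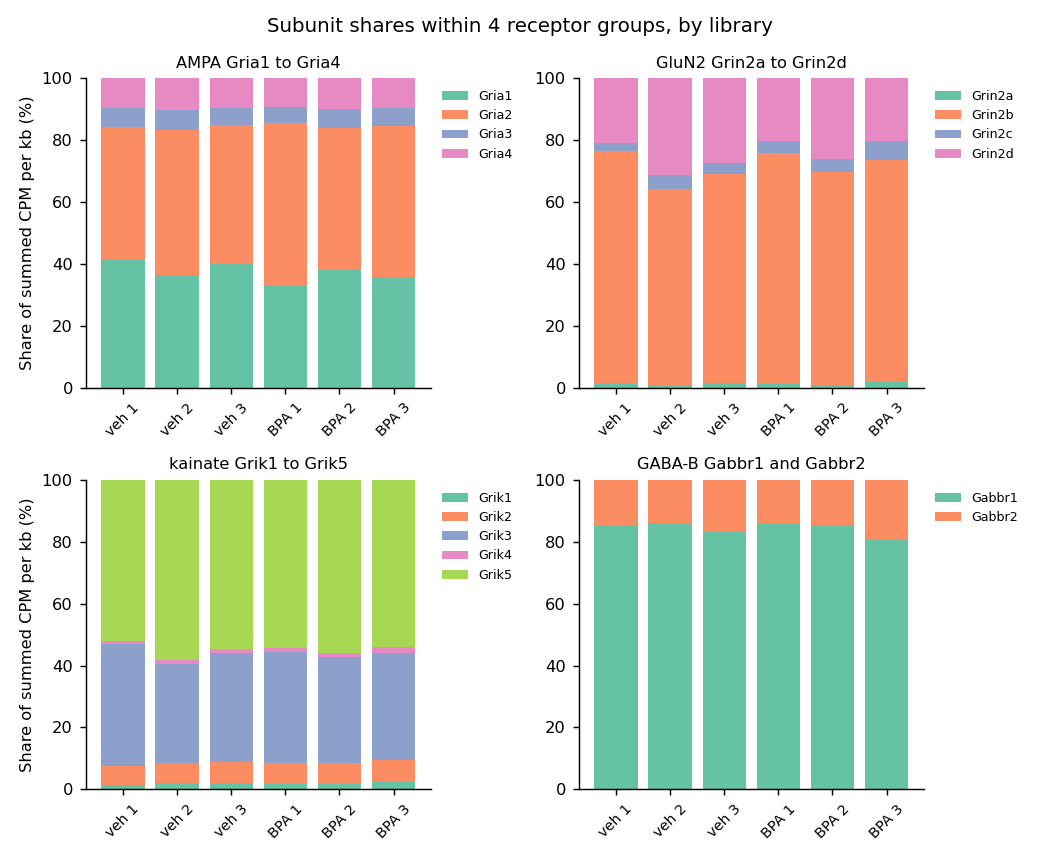
Share of each subunit in the summed CPM per kb of its receptor group, in percent, for each of the 6 libraries (veh: vehicle). Gria2 and Gria1, Grin2b, Grik5 and Grik3, and Gabbr1 hold the largest shares in every library of both groups.

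Most GABA-A genes sit in clusters that hold several kinds of chain side by side, yet levels within a cluster differed widely. In the chromosome 7 cluster (GRCm38, 1112 kb from first to last base), Gabra5 was at 8.05 CPM per kb and Gabrg3 at 0.861. In that of chromosome 5 (1398 kb), Gabra2 was at 7.88, Gabrb1 at 1.93, Gabra4 at 1.75 and Gabrg1 at 0.641 CPM per kb. On chromosome 11, Gabrb2 was at 6.03 CPM per kb while its neighbour Gabra6 was near 0. The X chromosome cluster (587 kb) held Gabra3 at 14.2, Gabrq at 0.766 and Gabre at 0.317 CPM per kb.

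Both GABA-B genes were expressed. Gabbr1, which binds GABA, gave 415, 468 and 442 CPM in vehicle and 441, 437 and 420 CPM in BPA. Gabbr2, which carries the receptor to the surface and couples to the G protein, had 62.7, 64.9 and 77.3 CPM in vehicle and 62.0, 63.1 and 86.7 CPM in BPA. Gabbr1 made up 80.7% to 86.1% of the pair per length in all 6 libraries, and the 95% interval of its log2 difference, from -0.22 to 0.16, was the narrowest of all members.

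Promoters were compared because GC-rich start regions are a common feature of genes read in many tissues. RefSeq (GRCm38.p6) gave a window of 250 bases before the most upstream start for 32 of the 47 members. The tested members had a median of 16 CpG dinucleotides in these bases, over 25 genes and from 0 to 42, equal to the median over the 9644 tested genes with a window. The 7 members that were not tested had a median of 3, from 1 to 21. The sequences are Grik3 with the most CpG, Gabra3 with none although it is the highest alpha chain, and the nearly silent Gabra6 with 2. They were chosen after these values were seen, and capitals mark each CpG.
Grik3 (chr4:125490446-125490695, plus strand): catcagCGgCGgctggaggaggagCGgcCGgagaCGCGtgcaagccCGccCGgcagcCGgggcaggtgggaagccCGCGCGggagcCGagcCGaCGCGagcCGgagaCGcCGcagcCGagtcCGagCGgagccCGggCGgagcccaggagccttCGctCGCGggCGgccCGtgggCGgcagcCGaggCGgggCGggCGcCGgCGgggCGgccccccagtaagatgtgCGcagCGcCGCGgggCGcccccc
Gabra3 (chrX:72656920-72657169, minus strand): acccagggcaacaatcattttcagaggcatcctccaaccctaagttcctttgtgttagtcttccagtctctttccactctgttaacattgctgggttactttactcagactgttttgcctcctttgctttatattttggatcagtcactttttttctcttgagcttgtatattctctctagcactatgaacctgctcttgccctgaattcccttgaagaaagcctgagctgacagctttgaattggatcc
Gabra6 (chr11:42321073-42321322, minus strand): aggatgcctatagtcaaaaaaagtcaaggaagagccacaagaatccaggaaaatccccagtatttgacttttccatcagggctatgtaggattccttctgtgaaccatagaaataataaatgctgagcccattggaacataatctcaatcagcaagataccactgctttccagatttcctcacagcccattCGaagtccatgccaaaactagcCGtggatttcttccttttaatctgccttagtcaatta

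The size of difference that the data leave possible was read from the 95% intervals. All 40 included 0, as their p-values imply. For 28 members the whole interval lay within 1.5-fold in either direction, and for 37 within 2-fold. The distance from the estimate to either bound ran from 0.191 to 0.836 on the log2 scale. Of the 24 members that averaged at least 20 CPM, 23 had intervals within 1.5-fold, and the exception was Grin2d.

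**Figure D3:**
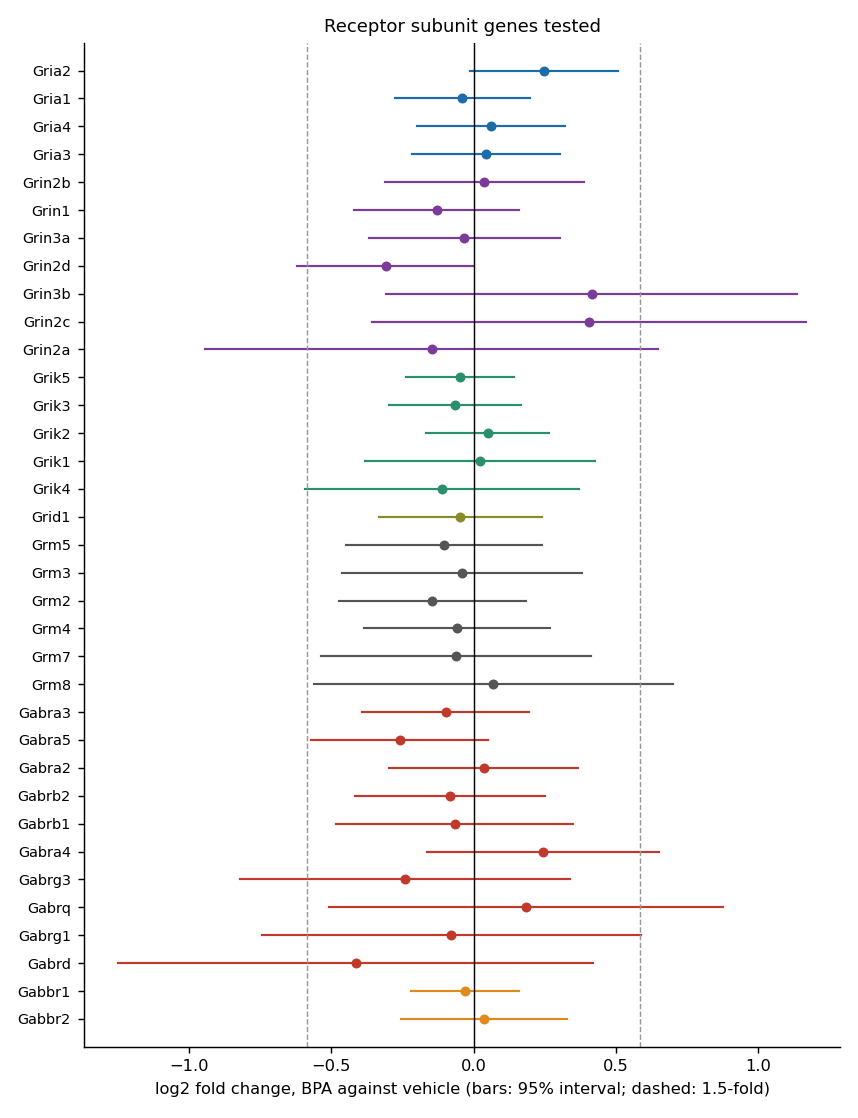
Log2 fold change of BPA against vehicle for 35 of the 40 members tested, with 95% intervals as bars and dashed lines at 1.5-fold, coloured by receptor class like the gene names in the plot of levels. Every interval includes 0, and the widest belong to genes with few counts such as Gabrd, Grin2a and Grin2c.

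Libraries of the same group differed from each other over the receptor genes as a whole. BPA 3 had the highest value of its group for 27 of 40 members (67.5%), against 33.5% of all genes tested, and its median deviation from the group mean was 0.18 on the log2 scale. Within vehicle, vehicle 1 was highest for 21 of 40 members (52.5%, against 34.5% of all genes), and vehicle 2 was lowest for 20 (50%, against 35.8% of all genes). BPA 2 was lowest of its group for 21 members (52.5%, against 32.5% of all genes). Over all genes the median deviation of each library was within 0.0101 of 0. Vehicle 2 and BPA 2 are the libraries with the most Ttr, and BPA 3 is the shallowest. Gene length moved with some of these libraries: the longest 20% of annotated genes deviated by a median of -0.10 in BPA 2 and 0.09 in vehicle 1, against 0.10 and -0.08 for the shortest 20%. BPA 1 went the other way, with 0.05 for the longest 20% while the members' median was -0.11. Of the 40 members, 19 belonged to that longest class, with transcripts of 5419 bases or more. The part of choroid plexus RNA, depth or length in the members' values was not tested.

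**Figure D4:**
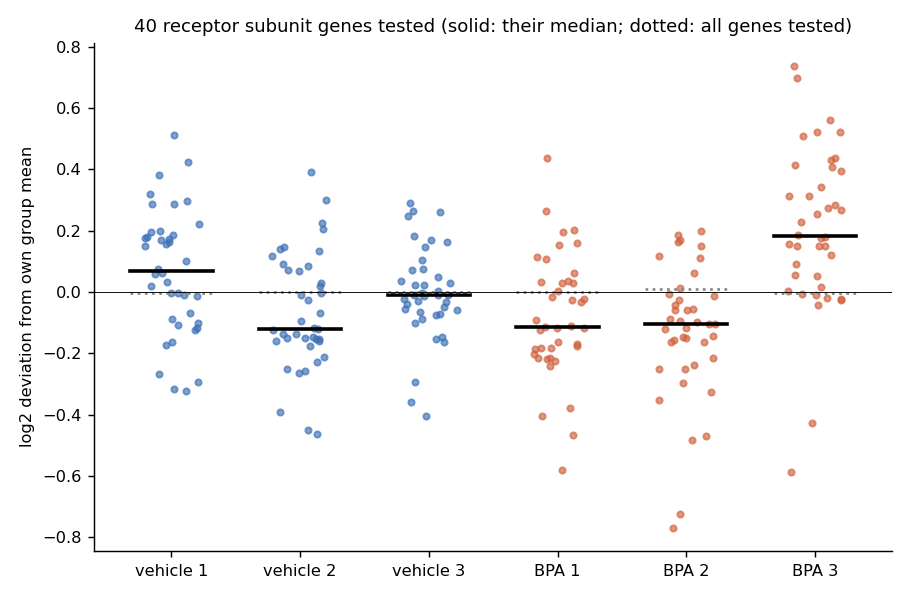
Deviation of each of the 40 members tested from the mean of its own group, on the log2 scale, in each library; solid lines are the members' medians and dotted lines the medians of all genes tested. The members' median is 0.18 in BPA 3, -0.12 in vehicle 2, -0.11 in BPA 1, -0.10 in BPA 2 and -0.0097 in vehicle 3, while the dotted lines stay near 0.

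Ratios within a library are free of library size. Grin2b exceeded Grin2a by a log2 ratio of 5.80 ± 0.323 (SD, n = 6), or 55.8-fold per length, with values of 5.60, 5.97 and 5.58 in vehicle and 5.997, 6.26 and 5.41 in BPA. Gria2 and Gria1 were closer, at 1.26-fold. In both ratios the groups overlapped.

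The chloride transporters decide whether GABA-A receptors depolarize or hyperpolarize, Slc12a2 by loading chloride into the cell and Slc12a5 by extruding it. Slc12a2 gave 69.6, 56.7 and 57.4 CPM in vehicle and 68.8, 58.8 and 77.9 CPM in BPA, and Slc12a5 gave 90.7, 68.6 and 80.9 CPM in vehicle and 62.0, 59.6 and 82.3 CPM in BPA. Neither separated the groups by itself, with log2 differences of 0.15 (SE 0.13) and -0.25 (SE 0.14). Their log2 ratio per length was -0.94, -0.83 and -1.05 in vehicle and -0.40, -0.57 and -0.63 in BPA, so every BPA library had more Slc12a2 relative to Slc12a5 than any vehicle library. The means were -0.94 ± 0.111 and -0.54 ± 0.118 (SD, n = 3 each), 0.40 apart, and 0.33 to 0.46 apart with any library left out. An exact permutation test of 3 against 3 libraries cannot give a p below 0.1, and none was run on the ratios. Among all single genes tested, 6.75% had groups that did not overlap, in either direction. The part of depth, gene length or cell make-up in this ratio was not tested. Of the 7 chloride transporter genes and their kinases, 3 were lower and 4 higher in BPA, and none had an unadjusted p under 0.05.

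Companion genes of the same synapses were read in the same fit, from lists written with earlier results of these data known. Genes that make, load and clear GABA were lower in BPA for 7 of 7 tested, with a median of -0.14. Of these, 2 had an unadjusted p under 0.05, and over all genes tested 49.5% were lower and 2.2% were under 0.05. Slc32a1, the transporter that fills vesicles with GABA, gave 45.6, 50.8 and 49.1 CPM in vehicle and 31.4, 44.0 and 40.6 CPM in BPA, with no overlap. Abat, the enzyme that breaks GABA down, gave 122, 111 and 113 CPM in vehicle and 84.0, 104 and 92.8 CPM in BPA, again with no overlap. Both had adjusted p-values near 1. Gad2, which makes GABA, had 194, 159 and 159 CPM in vehicle and 158, 151 and 157 CPM in BPA. The markers of the ventral telencephalon, also listed with earlier results of these data known, hold Gad1 and Gad2 as well. In BPA 14 of 14 were lower, with a median of -0.32, beside 49.5% of all genes tested. An unadjusted p under 0.05 was found for 8 of them, beside 2.2% of all genes tested. Nkx2-1, which specifies medial ganglionic eminence, gave 42.8, 39.0 and 26.0 CPM in vehicle and 12.9, 21.0 and 10.503 CPM in BPA (log2 difference -1.25, SE 0.22, adjusted p = 0.251). The others under 0.05 were Lhx6, Lhx8, Gbx1, Dlx1, Isl1, Ebf1 and Six3, with differences from -1.34 to -0.21. The part of these ventral genes in the GABA handling values was not tested.

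Genes that handle glutamate were 5 lower and 5 higher of 10 tested, with a median of 0.0031, and none had an unadjusted p under 0.05. The highest were the glutamine transporters Slc38a1, at 366 to 420 CPM, and Slc38a2, at 295 to 424 CPM. Among auxiliary subunits of AMPA and kainate receptors, 9 of 15 tested were lower, with a median of -0.07. The gene under an unadjusted p of 0.05 was Olfm2, which encodes a secreted olfactomedin that binds AMPA receptors, at 105, 120 and 134 CPM in vehicle and 93.6, 109 and 97.2 CPM in BPA. Cacng4 and Olfm1 were the highest of that list, at 282 to 355 and 272 to 329 CPM, while Cacng7 and Cacng8 were listed at 0 in every library. Anchoring partners of glutamate receptors were 8 lower and 7 higher of 15, led by the scaffolds Dlg4 at 388 to 467 CPM and Dlg3 at 149.7 to 166 CPM.

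Partners of GABA-A receptors, among them the scaffold gene Gphn and the adhesion gene Nlgn2, were 8 lower and 7 higher of 15 tested, and none had an unadjusted p under 0.05. The highest by CPM were Macf1, at 595 to 897, and Nlgn2, at 467 to 543. For GABA-B, 4 of 8 tested partners were lower. Kctd8, an auxiliary subunit that shapes the receptor's kinetics, gave 6.03, 5.77 and 5.32 CPM in vehicle and 4.40, 3.58 and 3.79 CPM in BPA (log2 difference -0.54, SE 0.25, unadjusted p = 0.0442, adjusted p near 1). The G protein genes Gng2 and Gnao1 were the highest of that list, at 977 to 1115 and 638 to 744 CPM. Of the glycine receptor genes, Glra2 and Glrb were tested and had log2 differences of -0.20 and -0.11. Altogether 4 of the 78 companion genes tested had an unadjusted p under 0.05 (5.13%), beside 2.2% of all genes.

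Summed markers of microglia, radial glia, vessels, blood and choroid plexus overlapped between the groups. They were at 50.0 to 63.1 CPM in vehicle and 52.9 to 60.9 CPM in BPA for the 7 microglia markers, 1571 to 1642 and 1543 to 1628 CPM for the 7 radial glia markers, and 235 to 292 and 230.2 to 270 CPM for the 11 markers of vessels and meninges. The 7 blood markers summed to 277 to 594 CPM in vehicle and 327 to 410 CPM in BPA, with Hba-a1 at an unadjusted p of 0.0452. The 6 choroid plexus markers ran from 5.15 to 222 CPM in vehicle and from 12.5 to 357 CPM in BPA, highest in vehicle 2 and BPA 2.

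**Figure D5:**
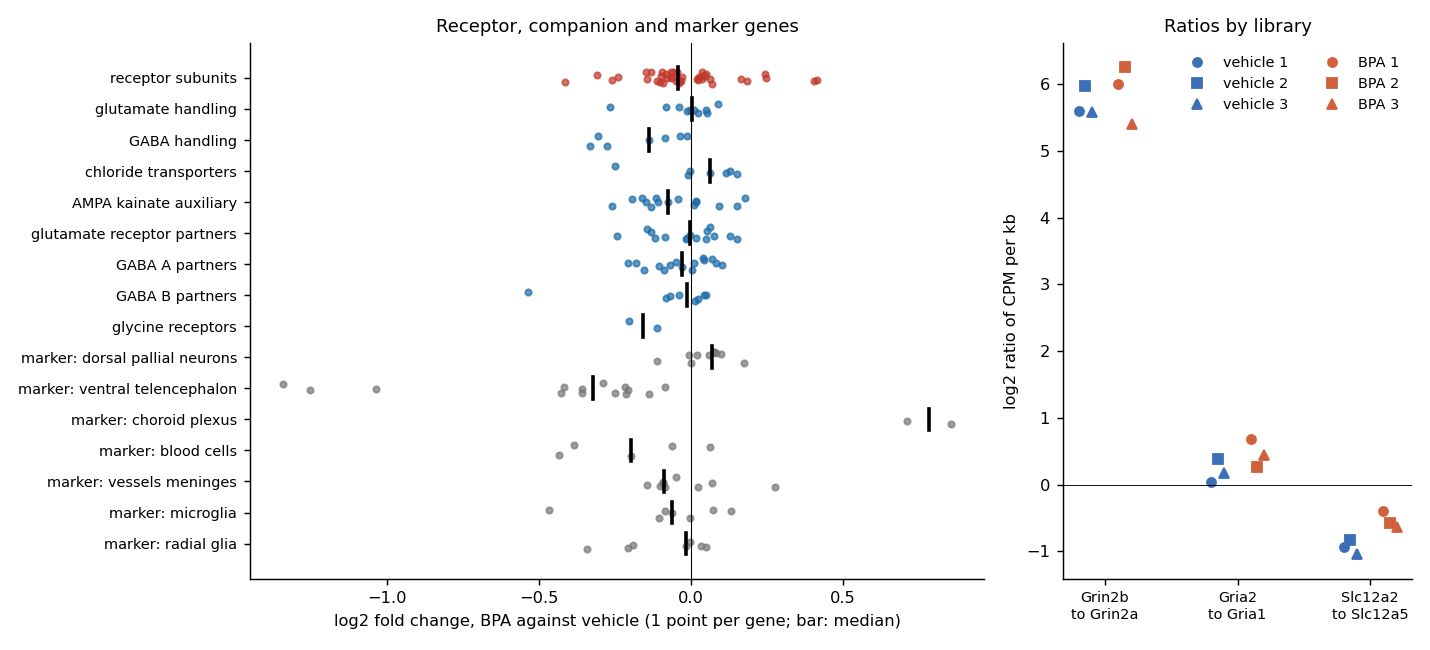
Left, log2 fold change of BPA against vehicle, with 1 point for each tested gene of the receptor subunits (red), the companion lists (blue) and the cell type marker lists (grey), and a bar at each median; right, log2 ratios of CPM per kb by library. The GABA handling and ventral telencephalon points lie at or below 0. The Slc12a2 to Slc12a5 ratio is higher in each of the 3 BPA libraries than in any vehicle library, while the groups overlap for the other ratios. No test was run on the ratios.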

How the data were processed

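RNA sequencing of the cerebral cortex of 6 fetuses, 3 vehicle and 3 BPA, was read from the table of counts per gene that the authors deposited. Per the study's methods and the submitters' processing notes, strand-specific libraries of total RNA gave single-end reads of 50 bases, which were mapped to GRCm38 by TopHat 2.0.14 and counted with featureCounts. Whether strand and reads with several alignments were used in counting is not given in the sources used here. Groups came from the labels, and replicates were numbered in accession order, so the numbers pair no fetuses.

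From these counts, genes were kept by filterByExpr of edgeR 4.0.16 (R 4.3.3) at a minimum count of 10 and a minimum total of 15, TMM scaling was applied, and BPA and vehicle libraries were compared by the quasi-likelihood test over 13741 genes with Benjamini-Hochberg adjustment at 0.1, without covariates. The common biological coefficient of variation was 0.106. Standard errors are those implied by the test statistic. Scripts were tested on simulated data. CPM used the scaled library sizes, and levels between genes were divided by the union of exons in GENCODE M21 (GRCm38), which matched all 47 members. Total counts ranged from 3444601 to 7180835 per library, and the floor of 3 counts covers counting error only. Alternatives were DESeq2 1.42.0, limma-voom (limma 3.58.1), the likelihood ratio test, other scalings and filters, thinning to the smallest total and omission of each library.

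The members and the companion and marker lists were chosen with earlier results of these data known. Values in every library are given for members with an unadjusted p under 0.05 or with groups that do not overlap, for the 3 highest per length of each class and for the ratio pairs. Companion and marker genes are named where their unadjusted p is under 0.05 or they are among the 2 highest of a companion list. Genes outside this rule are described as such where they carry a result. Some genes that meet the rule are not reported here by name, although counts and medians include them, and neither is a ratio that needs 1 of them.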

Additional observations from a re-analysis of the deposited data

How the results depend on the processing

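No paired analysis was possible because the labels give the fetuses of the groups no shared replicate number or litter. The number of all genes past the adjusted threshold was 0, and it was 3 with DESeq2, 4 with the likelihood ratio test, 19 without a filter, 0 to 1 with a library left out, and 15 with vehicle 2 and BPA 2 both left out, an alternative chosen after seeing the data. The smallest adjusted p of a member was 0.227 over all of these settings. Members at an unadjusted p under 0.05 went from 0 to 1 under upper quartile scaling (Grin2d, beside 2.23% of all genes) and library size alone (Gria2, beside 2.13%). They numbered 2 without a filter (2.64% of all genes) and between 0 and 2 with a library left out (1.38% to 5.10% of all genes). They also numbered 2 when vehicle 2 and BPA 2 (6.99%), or vehicle 1 and BPA 3 (2.05%), were both left out. Members whose groups did not overlap numbered 1, beside 6.75% of all genes. With DESeq2, RLE scaling, no filter or a minimum of 1 CPM they numbered 2, Gabra4 and Gabra5, beside 6.10% to 6.82% of all genes. The number was 0 with upper quartile scaling, a minimum of 10 CPM or thinning, beside 5.95% to 6.90% of all genes. That number was 2 to 9 with a library left out, beside 12.2% to 19.7% of all genes, and 9 and 13 with the pairs left out, beside 35.2% and 26.1%, since fewer libraries remained. Companion genes at an unadjusted p under 0.05 numbered 4, from 1 to 5 with a library left out, and 8 without vehicle 2 and BPA 2, where all genes under 0.05 went from 302 to 954. No member changed sign under the other tests, scalings or filters, 7 of 38 did after thinning, and 5 to 12 of 40 did with a library left out. The members' median log2 difference ran from -0.12 to 0.04 with a library left out. With the length of the longest transcript, chosen after seeing the data, the log2 ratio of Gria2 to Gria1 was 0.79 and that of Slc12a2 to Slc12a5 -0.30, and 9 of the 10 highest members per length stayed among the 10 highest. The group difference of the Grin2b to Grin2a ratio ran from -0.013 to 0.41 with a library left out. Depth limits Grin3b, Gabrd, Grin2c, Grm8, Gabrq and Grin2a most, the tested members with at most 32 counts in any library. Other causes of these shifts were not tested.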
